A study of Mus musculus with 18 samples.

Results

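Manf and 9 other genes of the endoplasmic reticulum (ER) stress response, Hspa5, Hsp90b1, Pdia4, Sdf2l1, Creld2, Dnajb9, Herpud1, Xbp1 and Ddit3, were followed through liver, epididymal white adipose tissue (eWAT, labelled WAT) and quadriceps muscle of mice fed a control or a high-salt diet. They were taken by gene symbol from the 21899 genes of the expression table, with no filter on their levels, and all 10 symbols were found. The set was chosen with earlier results of these data known. Levels are FPKM, the fragments per kilobase of exon scaled to the mapped fragments of the library. Ddit3 has a second, overlapping gene model of 105 exon bases, which is listed at 0 in all 18 libraries and was not used. The question was whether Manf moved with the ER chaperones, between the diets and between the mice.

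The mice were wild type male C57BL/6 animals aged 18 weeks. Control mice (CON) received chow and tap water, and high-salt mice (HSD) received salt-enriched chow and saline to drink for 12 weeks. Each tissue gave 3 CON and 3 HSD libraries, each from a single mouse, and 4 of the 8 mice (CON16, CON72, HS2 and HS5) gave all 3 tissues. Libraries were made from whole frozen tissue, and such bulk RNA cannot separate fewer cells of a type from less RNA per cell.

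The ER folds secreted and membrane proteins. When unfolded proteins build up, the sensors Ern1 (IRE1), Eif2ak3 (PERK) and Atf6 start the unfolded protein response, which raises chaperones, disulfide isomerases and degradation factors and, through Atf4, the transcription factor Ddit3 (CHOP). Manf is a small secreted protein that is kept in the ER with the chaperone Hspa5 (BiP), and its transcription is a known target of the response. Liver is rich in ER because hepatocytes secrete most plasma proteins.

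Several libraries stood apart before any gene of the response was compared. The recovered fragments per library numbered 7628071 to 16637489, and mitochondrially encoded genes took 15.4 to 60.8% of the liver total, 3.52 to 5.11% in eWAT and 11.3 to 16.5% in muscle. In liver that share was 60.8% in CON14, 25.7% in CON16 and 37.8% in CON72, against 16.3% in HS2, 15.4% in HS4 and 44.4% in HS5. All 15 hepatocyte markers exceeded 1 FPKM in every liver library, but their sum ran from 18254 FPKM in CON14 and 42439 in HS5 to 95793 in HS4. The CON16 liver library also held 14 of 15 skeletal muscle markers at 1 FPKM or more (sum 5394 FPKM, against 3.04 to 7.65 in the other liver libraries). The HS3 eWAT library held all 20 epididymal epithelium markers (sum 21696 FPKM, against 1.35 to 14.9 in the other eWAT libraries), and its 14 adipocyte markers summed to 8333 FPKM against 19192 to 26385.

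RefSeq promoters on GRCm38.p6 were matched by symbol for 9 of the 10 genes, all but Manf. They are shown because the response acts on its chaperone targets largely through a shared element. The windows of 300 bases (250 before and 50 after the annotated start) were searched on both strands for the ER stress response element ERSE (CCAAT, then 9 bases, then CCACG), ERSE-II (ATTGG, then 1 base, then CCACG), the unfolded protein response element UPRE (TGACGTGG) and the amino acid response element CARE (TGATGNAAT). ERSE letters stood in 3 of the 9 promoters (Hspa5, Hsp90b1 with 2 matches, and Creld2), against 0.119% of 32851 promoters of that length. They also stood in 5 of 20 promoters of other ER chaperones and folding enzymes and in 2 of 15 of ER-associated degradation genes. ERSE-II letters stood in 1 of the 9 (Herpud1), against 0.0365% of all promoters and 1 of the 20 of other ER chaperones and folding enzymes. UPRE and CARE letters stood in none of the 9, and in 0.676% and 0.965% of all promoters. Xbp1, Sdf2l1, Pdia4, Dnajb9 and Ddit3 held none of the 4 strings in these windows. The 250 bases before the start are given below for the 4 matched genes, 5′ to 3′ on the gene's strand, with the matched element in capitals. Hspa5 is at chr2:34771840-34772089 (+), Hsp90b1 at chr10:86705445-86705694 (-), Creld2 at chr15:88819396-88819645 (+) and Herpud1 at chr8:94386179-94386428 (+).
Hspa5: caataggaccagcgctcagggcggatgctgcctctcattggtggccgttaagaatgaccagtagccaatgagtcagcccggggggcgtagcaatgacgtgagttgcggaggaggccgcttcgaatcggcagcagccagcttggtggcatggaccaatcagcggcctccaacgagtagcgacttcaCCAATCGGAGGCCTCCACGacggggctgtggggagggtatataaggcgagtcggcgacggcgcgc
Hsp90b1: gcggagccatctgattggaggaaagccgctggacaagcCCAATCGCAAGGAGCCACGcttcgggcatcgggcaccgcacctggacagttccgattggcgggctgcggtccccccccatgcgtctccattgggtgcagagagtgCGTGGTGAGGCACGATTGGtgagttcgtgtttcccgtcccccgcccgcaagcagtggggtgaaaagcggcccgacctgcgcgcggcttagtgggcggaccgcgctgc
Creld2: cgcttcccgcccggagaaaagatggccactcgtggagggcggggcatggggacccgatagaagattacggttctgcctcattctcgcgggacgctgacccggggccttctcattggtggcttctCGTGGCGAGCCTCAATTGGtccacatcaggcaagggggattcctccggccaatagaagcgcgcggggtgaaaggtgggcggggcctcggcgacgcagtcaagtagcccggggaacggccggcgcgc
Herpud1: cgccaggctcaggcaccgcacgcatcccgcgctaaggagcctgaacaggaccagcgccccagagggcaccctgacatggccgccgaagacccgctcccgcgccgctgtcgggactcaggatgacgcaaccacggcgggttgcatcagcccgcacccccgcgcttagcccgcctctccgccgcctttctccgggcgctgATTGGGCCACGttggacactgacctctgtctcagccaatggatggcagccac
The Hspa5 element lay 65 to 47 bases before the start and the Herpud1 element 52 to 42 bases before it. The Creld2 element and the second Hsp90b1 element read on the opposite strand. These matches describe the sequence only, and no binding was measured.

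Manf lies on chromosome 9 (mm10, 106838312 to 106891979, minus strand). Its exons share 146 bases with Dcaf1 and 166 with the antisense gene 4930524O07Rik on the opposite strand, and 14 with Rbm15b on its own strand, out of 3524 exon bases.

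In CON mice Manf was highest in liver and lowest in muscle. Its FPKM in CON liver was 6.21 in CON14, 25.9 in CON16 and 16.8 in CON72 (mean 16.3 ± 9.86, SD, n = 3). In CON eWAT it was 9.47, 6.59 and 6.63 (7.56 ± 1.65), and in CON muscle 1.86, 1.75 and 1.47 (1.69 ± 0.201). The muscle libraries lay below all liver and eWAT libraries, whereas liver and eWAT overlapped. In a limma fit of log2(FPKM + 0.5) over all 18 libraries, Manf was 2.73 log2 units higher in CON liver than in CON muscle (SE 0.62, adjusted p = 0.0011) and 1.86 higher in CON eWAT than in CON muscle (adjusted p = 0.014). The difference between liver and eWAT was 0.87 (SE 0.62, adjusted p = 0.208), and was called with mitochondrially encoded genes left out (1.60, adjusted p = 0.011) and after median-ratio scaling of the libraries (2.41, adjusted p = 0.0023). All adjusted p-values from limma are Benjamini-Hochberg values over every gene tested, and a called gene had an adjusted p under 0.05 and differed by 1 log2 unit or more in either direction.

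Most of the other resident proteins of the ER lumen also had their lowest CON mean in muscle. The share of the 10 genes called was close to that of all genes called in either direction. Between CON liver and CON muscle 6 of the 10 genes were called, all higher in liver: Manf, Pdia4 (a disulfide isomerase, log2 difference 3.05), Creld2 (an ER protein with isomerase activity, 2.60), Sdf2l1 (a partner of ER chaperones, 2.53), Hsp90b1 (the ER HSP90, GRP94, 1.24) and Xbp1 (1.02). The background was 48.4% of 13067 genes called in either direction, with 1889 higher in liver and 4435 lower. Between CON eWAT and CON muscle the same 6 were called, all higher in eWAT, by 1.82 (Hsp90b1) to 3.02 (Pdia4) for 5 of them besides Manf. The background was 53.3%, with 5935 of 13067 genes called higher in eWAT and 1025 lower. Sdf2l1, at adjusted p = 0.0468, lost that call when any of 12 of the 18 libraries was left out. After median-ratio scaling Manf (0.98 higher, limma adjusted p = 0.167), Hsp90b1 and Sdf2l1 were not called, and Herpud1 was called lower in eWAT (-1.63). Hspa5, the main ER chaperone, was at 33.8, 95.6 and 101 FPKM in CON liver, 104, 91.1 and 98.5 in CON eWAT and 39.3, 40.1 and 36.2 in CON muscle, and was not called against muscle from either tissue (limma adjusted p of 0.238 and 0.0581). It was called between eWAT and muscle with the replicate number as a block (1.33, limma adjusted p = 0.0477), with mitochondrial genes left out (1.17, limma adjusted p = 0.0384) and on the study's libraries (limma adjusted p = 0.006). Between liver and muscle it was called with mitochondrial genes left out (limma adjusted p = 0.0153) and after median-ratio scaling (1.48, limma adjusted p = 0.0316). Dnajb9 (ERdj4, an Hspa5 co-chaperone) did not follow the order, with CON means of 10.9 ± 5.55 in liver, 17.4 ± 0.408 in eWAT and 16.4 ± 0.289 in muscle (SD, n = 3).

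Between CON liver and CON eWAT only 2 of the 10 were called, against 67.4% of all genes. Xbp1, the transcription factor that IRE1 activates by splicing, was lower in liver (35.9 ± 2.64 FPKM) than in eWAT (88.0 ± 10.6), a log2 difference of -1.28. Herpud1, which recruits the ER degradation machinery, was higher in liver (93.3 ± 20.9) than in eWAT (33.1 ± 2.59), a difference of 1.46. The median gene differed by -1.33 in this contrast, and median-ratio scaling brought that median to -0.01. After that scaling 7 of the 10 were called, against 5215 of 12641 genes in all, and Xbp1 became 0.34 higher in liver. For the contrasts with muscle the medians of all genes were -0.48 (liver minus muscle) and 0.91 (eWAT minus muscle). Cdnf, the only paralog of Manf, had the opposite distribution, at 22.6 ± 1.08 FPKM in CON muscle and 2.01 ± 0.0991 in CON eWAT. In CON liver it was at 0 in CON14 and CON72 and at 0.912 in CON16, the library with skeletal muscle transcripts.

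**Figure D1:**
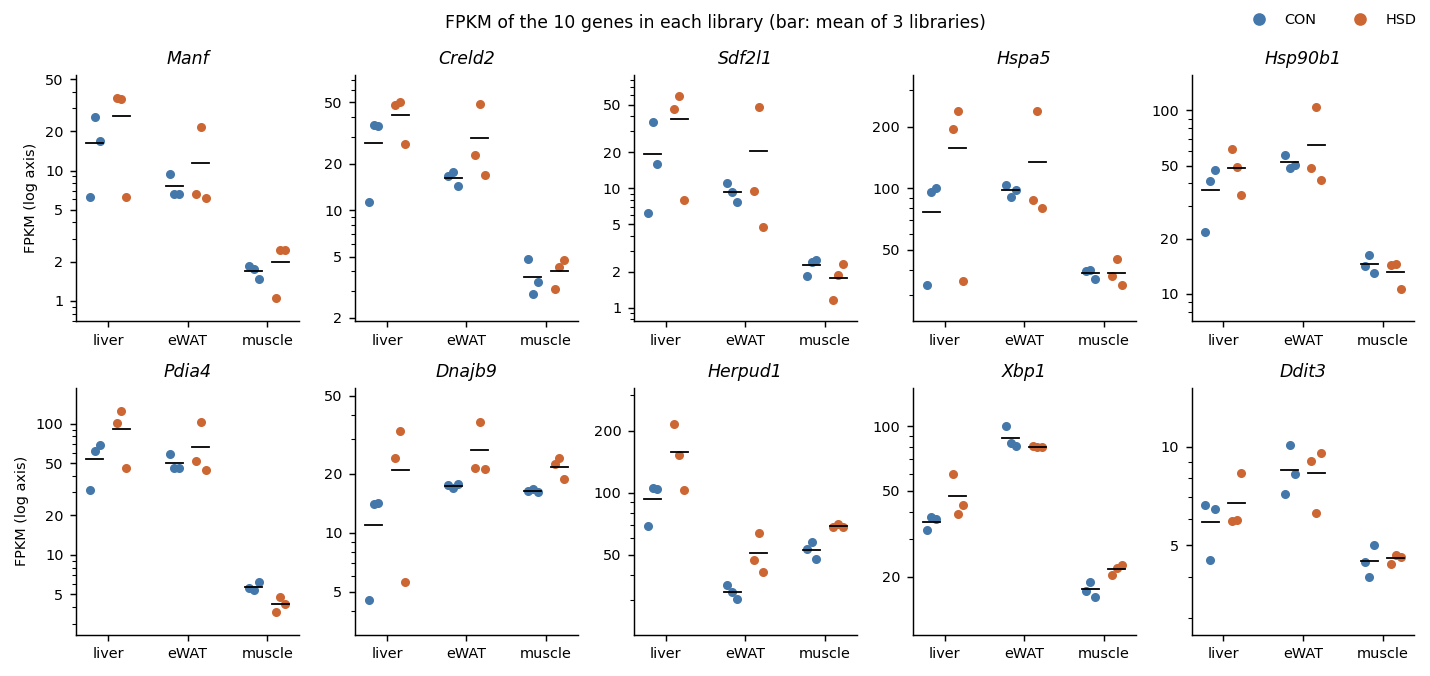
FPKM (log axes, one panel per gene) in the 18 libraries by tissue, with CON in blue and HSD in orange and a bar at the mean of 3 libraries. In liver 1 CON and 1 HSD library sit low for most genes, and in eWAT the HS3 library is highest for 8 of the 10.

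In liver the fitted difference between diets was positive for all 10 genes, beside 6473 of all 10317 genes tested, and none of the 10 was called. Manf was at 6.21 FPKM in CON14, 25.9 in CON16 and 16.8 in CON72, and at 36.3 in HS2, 35.3 in HS4 and 6.31 in HS5. HS2 and HS4 lay above every CON library, while HS5 lay beside the lowest. The HSD mean of 25.9 ± 17.02 against 16.3 ± 9.86 in CON corresponded to a log2 fold change of 0.51 (SE 0.77, 95% interval -1.29 to 2.32, limma adjusted p = 0.848).

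For Hspa5 too, CON14 and HS5 were lowest and HS2 and HS4 highest. It was at 33.8, 95.6 and 101 FPKM in CON14, CON16 and CON72, and at 195, 239 and 35.2 in HS2, HS4 and HS5, a log2 fold change of 0.77 (SE 0.81, limma adjusted p = 0.783). Sdf2l1 was at 6.15, 36.1 and 16.0 in CON and at 45.9, 59.6 and 7.92 in HSD (log2 fold change 0.85, SE 0.88). Its highest library exceeded its lowest 9.68-fold, the widest range of the 10 genes in liver. Dnajb9 was at 4.53, 14.1 and 14.2 in CON and at 23.9, 33.0 and 5.60 in HSD (log2 fold change 0.74, SE 0.71). For these genes too HS2 and HS4 were above all CON libraries and HS5 was within the CON range.

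The remaining lumenal proteins spread less. Pdia4 ran from 31.4 to 68.6 FPKM in CON and from 46.2 to 125 in HSD, Creld2 from 11.3 to 35.9 and from 26.7 to 50.6, and Hsp90b1 from 21.7 to 47.3 and from 34.6 to 61.4. Their log2 fold changes were 0.70, 0.71 and 0.43, with limma adjusted p from 0.764 to 0.775. The CON14 library was lowest for 9 of the 10 genes, and the highest was HS2 for 4, HS4 for 5 and HS5 for 1.

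Herpud1 and the transcription factors behaved less alike. Herpud1 was at 69.1, 106 and 105 FPKM in CON and at 216, 153 and 103 in HSD, so that HS5 fell just below the upper CON libraries (log2 fold change 0.71, SE 0.43, limma adjusted p = 0.764). Xbp1 was at 32.9, 37.9 and 37.0 in CON and at 60.0, 39.0 and 43.2 in HSD. It was the only one of the 10 with every HSD library above every CON library, which held for 8.62% of all genes (3.47% had every HSD library below). With mitochondrial genes left out it was Herpud1 alone, at 176, 142 and 169 in CON and 258, 181 and 185 in HSD, and no longer Xbp1, an order then seen in 3.05% of all genes (6.63% for the reverse order). Gene-level FPKM do not show Xbp1 splicing. Ddit3, the CHOP factor of prolonged stress, was at 6.66, 4.52 and 6.45 in CON and at 5.94, 5.96 and 8.33 in HSD, with HS5 highest.

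No gene of the whole liver table was called (background 0% of 10317 genes), and voom, run on recovered fragments, also called 0 of the 10 and 0 in all. At an unadjusted p under 0.05 the limma fit held 0 of the 10 genes and 592 of all genes (5.74%). The median fold change of the 10 was 0.71 on the log2 scale beside 0.13 for all genes. The libraries with low Manf, CON14 and HS5, were those with the largest mitochondrial shares and the lowest hepatocyte marker sums. With mitochondrially encoded genes left out and the rest rescaled, Manf was at 15.9, 34.9 and 27.1 FPKM in CON14, CON16 and CON72 and at 43.3, 41.7 and 11.3 in HS2, HS4 and HS5, and its fold change fell to 0.15 (adjusted p = 0.958). With the mitochondrial share as a covariate it was -0.60, and without CON14 it was -0.04. The fold changes of the other genes also moved with single libraries, from 0.27 without CON14 to 1.64 without HS5 for Hspa5, from 0.22 to 1.73 for Sdf2l1 and from 0.22 to 1.48 for Dnajb9. Between the same omissions Creld2 ran from 0.18 to 1.00, Pdia4 from 0.36 to 1.13 and Hsp90b1 from 0.096 to 0.65, and Herpud1 ran from 0.45 without HS2 to 0.99 without HS5. Limma's array weights count a library less the more it departs from its group. With them 3 of the 10 were called, Manf (1.09), Sdf2l1 (1.48) and Herpud1 (1.04), among 926 of 10317 genes in all. Those weights were 35.4 for HS2 and 8.19 for CON72 against 0.165 to 0.428 for the other 4 libraries, and their estimation stopped before it converged, so that these calls rest on HS2 and CON72. The part of the cell makeup and RNA quality of these libraries in the difference was not tested.

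The study's own list of sequenced samples omits the CON16 and HS5 liver libraries, and on the other 4 (CON14, CON72, HS2 and HS4) the differences were larger. Manf was 1.75 log2 units higher in HSD (SE 0.48, limma adjusted p = 0.0757), Hspa5 1.88 (0.0961), Sdf2l1 2.33 (0.0574) and Dnajb9 1.73 (0.0825). None passed the threshold, against 0.351% of 9970 genes called in that fit, and 6 of the 10 had an unadjusted p under 0.05 beside 31.7% of all genes. The mitochondrial shares in those libraries were 60.8 and 37.8% in CON and 16.3 and 15.4% in HSD, so that diet and that share cannot be told apart there. Without CON14 and HS5, the pair chosen after the data were seen, Manf was 0.76 higher (adjusted p = 0.288) and Hspa5 1.13 higher (adjusted p = 0.229). Without CON16, the library with muscle transcripts, Manf was 0.95 higher (adjusted p = 0.593).

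**Figure D2:**
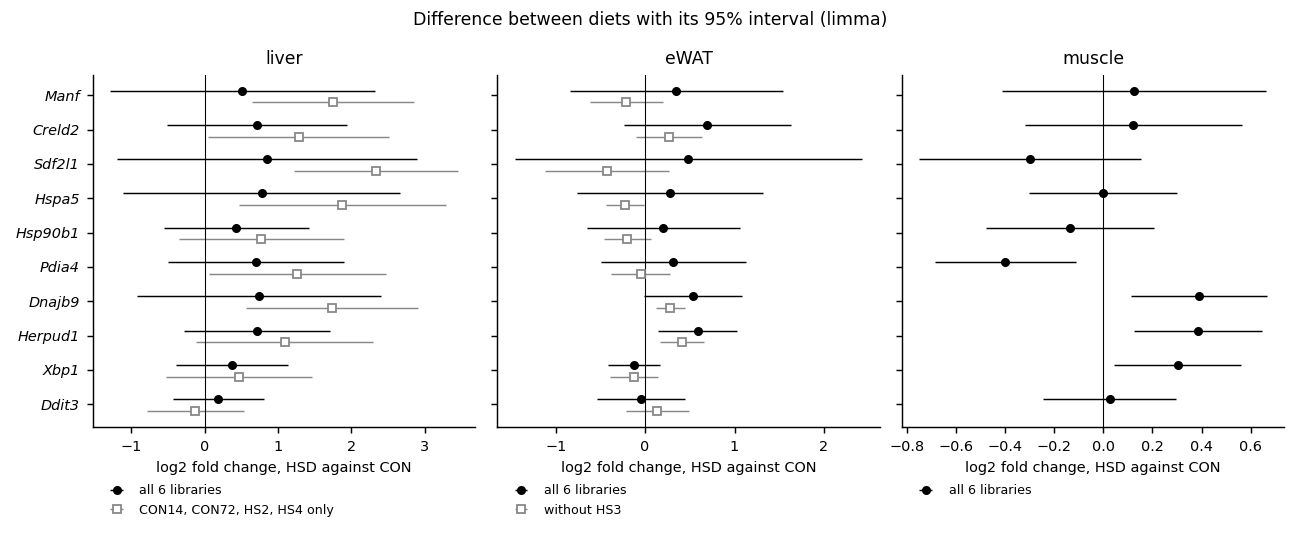
Log2 fold change of HSD against CON with its 95% interval from limma for each gene, in liver, eWAT and muscle (axes differ in range). Filled points use all 6 libraries of a tissue, and open squares use 4 liver libraries or leave out HS3 in eWAT. The liver intervals of all 6 libraries span 0 for every gene, and the muscle intervals of Dnajb9, Herpud1, Xbp1 and Pdia4 do not.

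In eWAT the ER chaperones were highest in a single HSD library. Manf was at 9.47, 6.59 and 6.63 FPKM in CON16, CON71 and CON72, and at 6.59, 21.5 and 6.18 in HS2, HS3 and HS5. Hspa5 was at 104, 91.1 and 98.5 in CON and at 87.2, 238 and 80.1 in HSD. Sdf2l1 was at 10.98, 9.29 and 7.70 in CON and at 9.46, 47.8 and 4.76 in HSD. HS3 was the highest eWAT library for 8 of the 10 genes, all but Xbp1 and Ddit3, and it was the lowest for those 2. It is also the library with the epididymal markers, whose part in these levels was not tested. None of the 15 pancreatic acinar markers but 1 exceeded 1 FPKM in HS3, and 10 were at 0.

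With all 6 libraries the fold changes were 0.35 for Manf (SE 0.49), 0.28 for Hspa5 and 0.49 for Sdf2l1, and without HS3 they were -0.21, -0.22 and -0.43. Neither fit called any of the 10, with backgrounds of 0% of 13740 genes and 1.21% of 13245. Voom called 0 of the 10 and 0 of all eWAT genes on the 6 libraries, and 1 of the 10 (Herpud1) and 16.7% of all genes passed 0.05 before adjustment. The study's own list omits HS5 in eWAT, and on the other 5 libraries, HS3 included, 0 of 13844 genes were called (0%) and Manf was 0.65 higher in HSD (adjusted p = 0.456).

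Herpud1 and Dnajb9 were higher in HSD eWAT also in the libraries other than HS3. Herpud1 was at 35.8, 32.8 and 30.6 FPKM in CON and at 47.1, 63.9 and 41.1 in HSD, and Dnajb9 at 17.5, 16.9 and 17.7 against 21.3, 36.5 and 21.1. For these 2 of the 10 genes every HSD library lay above every CON library, an order seen in 16.2% of all eWAT genes. Without HS3 the fold changes were 0.41 for Herpud1 (SE 0.10, limma adjusted p = 0.063) and 0.28 for Dnajb9 (SE 0.07, limma adjusted p = 0.0578), short of the threshold. Xbp1 was at 100, 83.0 and 80.8 in CON and at 80.6, 79.7 and 80.3 in HSD, every HSD library below every CON library (12.4% of all genes), and the groups overlapped once mitochondrial genes were left out. Atf4, the translationally controlled factor downstream of PERK, was at 46.5, 51.7 and 50.5 in CON and at 67.5, 70.0 and 67.4 in HSD (log2 fold change 0.46, SE 0.09, limma adjusted p = 0.134). Without HS3 it was 0.44 higher (limma adjusted p = 0.0321), below the fold required for a call. In that fit 984 of 13245 genes had an adjusted p under 0.05. Creld2 was at 16.6, 17.7 and 14.4 in CON and at 22.7, 48.6 and 16.8 in HSD, with overlapping groups and HS3 highest. Its log2 fold change was 0.70 with HS3 and 0.27 without it.

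In muscle Manf was near its lowest levels, at 1.86, 1.75 and 1.47 FPKM in CON16, CON71 and CON72 and at 1.04, 2.47 and 2.47 in HS2, HS3 and HS5, from 49 to 113 fragments a library. The HSD libraries lay on both sides of the CON libraries (log2 fold change 0.13, SE 0.24, limma adjusted p = 0.837). Hspa5 was at 39.3, 40.1 and 36.2 in CON and at 37.4, 45.3 and 33.6 in HSD, with means of 38.5 ± 2.05 and 38.8 ± 5.99. The 95% interval of its log2 difference was -0.30 to 0.30.

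Dnajb9, Herpud1 and Xbp1 were above the CON range in all 3 HSD muscle libraries, and Pdia4 was below it. Dnajb9 was at 16.3, 16.7 and 16.2 FPKM in CON and at 22.3, 24.1 and 18.8 in HSD (log2 fold change 0.39, SE 0.12). Herpud1 was at 53.1, 57.7 and 47.5 in CON and at 68.2, 70.1 and 68.4 in HSD (0.39, SE 0.12). Xbp1 was at 17.3, 19.0 and 16.2 in CON and at 20.4, 22.1 and 22.6 in HSD (0.30, SE 0.12). These 3 genes serve different steps, folding, degradation and transcription. Pdia4 was at 5.60, 5.38 and 6.19 in CON and at 3.70, 4.78 and 4.23 in HSD (-0.40, SE 0.13). The limma adjusted p-values were 0.17, 0.15, 0.238 and 0.174, so that none was called. Every HSD library above every CON library was seen in 6.72% of all muscle genes, and every HSD library below in 15.6%.

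The muscle table as a whole held 35 calls among 10834 genes (0.323%), 54 with the replicate number as a block, and 0 of the 10 in either fit. Voom called 66 genes and 0 of the 10. By adjusted p alone 0.895% of genes passed and none of the 10, and at an unadjusted p under 0.05 4 of the 10 did beside 16.3% of all genes. Atf4 was again higher in HSD muscle, at 85.8, 106 and 98.9 FPKM against 59.0, 66.6 and 69.6 (log2 fold change 0.57, SE 0.13, limma adjusted p = 0.0792). Cdnf, the muscle paralog of Manf, was at 23.7, 21.6 and 22.4 in CON and at 22.4, 14.98 and 14.4 in HSD (-0.41, SE 0.17, limma adjusted p = 0.27).

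Whether the tissues differed in their response to the diet was tested per gene by an interaction term over all 18 libraries, and none of the 10 was called. Liver minus eWAT held 0 of the 10 against a background of 0.758% of 13067 genes, with adjusted p from 0.403 to 0.992. Liver minus muscle held 0 of the 10 against 0.0612%, with adjusted p from 0.638 to 0.984. The contrast of eWAT with muscle held 0 of the 10 against 0%. No unadjusted p for the 10 was under 0.05 in any of the 3 contrasts, and these p-values do not show that the tissues responded alike.

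Whether Manf moved with the other genes was asked next among the 6 mice of each tissue, with Pearson's r on log2(FPKM + 0.5), Spearman's rank correlation and exact permutation tests over all 720 pairings, adjusted over 27 relations. In liver Manf correlated positively with 8 of the 9 and negatively with Ddit3. Pearson's r was 0.98 with Sdf2l1, 0.97 with Hspa5, 0.97 with Dnajb9, 0.91 with Pdia4, 0.86 with Creld2, 0.85 with Hsp90b1, 0.81 with Herpud1, 0.46 with Xbp1 and -0.70 with Ddit3. Of these, 6 had an adjusted exact two-sided p under 0.05, from 0.0375 (Creld2 and Herpud1) to 0.0477 (Hspa5, Pdia4 and Dnajb9), with Sdf2l1 at 0.045. Spearman's rank correlation ran from 0.89 to 1.00 for the 7 chaperones and cofactors, and only that of Herpud1 (1.00, exact permutation adjusted p = 0.0375) passed after adjustment.

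Without CON14 and HS5, the libraries farthest from the median of Manf, r over the other 4 was 0.97 for Sdf2l1, 0.83 for Hspa5, 0.81 for Dnajb9, 0.75 for Pdia4, 0.89 for Creld2, 0.81 for Herpud1 and 0.52 for Hsp90b1. The relation with Ddit3 dropped to -0.15. With the mean of each diet subtracted r was 0.99 for Sdf2l1 and 0.97 for Hspa5, and 2 of the 9 passed in place of 6, Sdf2l1 and Ddit3 (r = -0.89). Pairings there crossed the diets although each diet had been centred on its own, so those p-values are not exact. With mitochondrial genes left out r stayed at 0.96 for Sdf2l1, 0.94 for Hspa5 and 0.93 for Dnajb9. On that scale it fell to 0.71 for Pdia4, 0.62 for Creld2, 0.22 for Hsp90b1 and 0.19 for Herpud1, and turned to -0.70 for Xbp1. None of the 9 passed on that scale, with Sdf2l1 nearest at an adjusted exact permutation p of 0.05, and none passed after median-ratio scaling.

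These correlations stood within a broad shared movement of the liver libraries. The r with Manf exceeded 0.9 for 12.9% of 10316 genes, and its median over all genes was 0.28. By r, Sdf2l1 ranked 45 among those genes, Hspa5 214, Dnajb9 261, Pdia4 1170, Creld2 1899, Hsp90b1 2003, Herpud1 2454 and Xbp1 4476. At most 2.52% of genes had a higher r than Sdf2l1, Hspa5 or Dnajb9, and at least 11.3% had a higher r than each of the others.

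**Figure D3:**
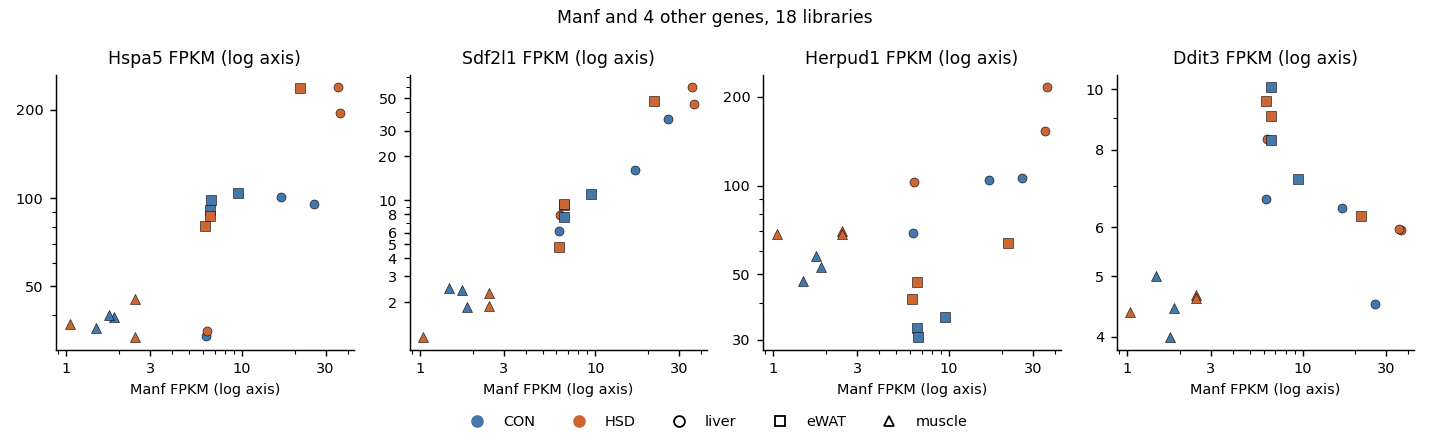
FPKM of Hspa5, Sdf2l1, Herpud1 and Ddit3 (vertical log axes) against that of Manf (horizontal log axis) in 18 libraries, with circles for liver, squares for eWAT and triangles for muscle, blue for CON and orange for HSD. Hspa5 and Sdf2l1 rise with Manf within liver, the HS3 eWAT library lies apart from the other 5, and the muscle libraries form no line.

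In eWAT the correlations of Creld2, Dnajb9 and Herpud1 with Manf changed sign without HS3, and those of the other chaperones were smaller. Pearson's r with Manf was 0.99 for Pdia4, 0.99 for Hsp90b1, 0.98 for Hspa5, 0.96 for Sdf2l1 and -0.89 for Ddit3, and these 5 had adjusted exact two-sided p-values from 0.0375 to 0.0477. Without HS3 r was 0.89 for Pdia4, 0.87 for Hsp90b1, 0.78 for Hspa5 and 0.65 for Sdf2l1. None of the 9 passed when any 1 eWAT library was left out, where 5 libraries allow no exact permutation p under 0.0167. Of Spearman's rank correlations only that of Hsp90b1 (1.00, exact permutation adjusted p = 0.0375) passed with all 6. The r of Creld2, Dnajb9 and Herpud1 was 0.88, 0.85 and 0.75 with HS3 and -0.16, -0.45 and -0.17 without it. Without both CON16 and HS3, the 2 farthest from the median, r was 0.86 for Hspa5, 0.99 for Hsp90b1 and 0.47 for Pdia4. Manf in those 4 libraries ran only from 6.18 to 6.63 FPKM.

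In muscle none of the 9 correlated with Manf past the threshold, and none had an unadjusted exact permutation p under 0.05. Pearson's r was 0.22 for Hspa5, 0.07 for Dnajb9, 0.14 for Pdia4 and -0.35 for Hsp90b1, and the largest was 0.70 for Creld2 (exact two-sided p = 0.142, adjusted p = 0.273). Without HS2 and HS5, the 2 farthest from the median of Manf, r over the other 4 ran from -0.96 for Pdia4 to 0.98 for Hspa5. With 6 mice the smallest exact two-sided p is 0.0028. The low fragment counts of Manf, Sdf2l1 (17 to 32 a library) and Creld2 (46 to 87) limit the precision in this tissue.

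**Figure D4:**
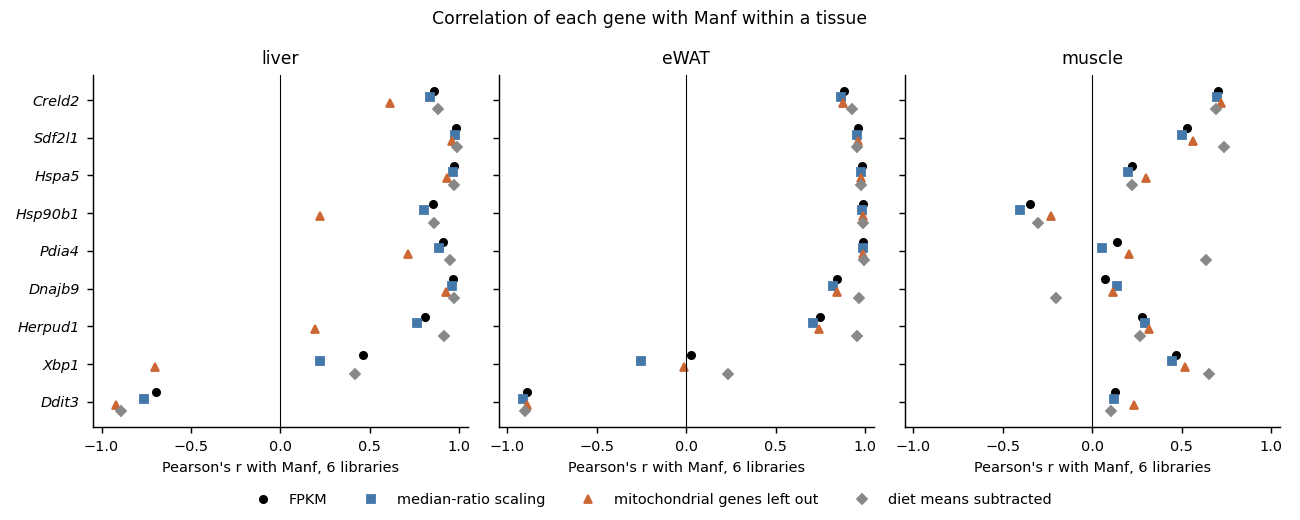
Pearson's r with Manf for each of the other 9 genes over the 6 libraries of a tissue, on deposited FPKM (circles), after median-ratio scaling (squares), with mitochondrial genes left out (triangles) and with diet means subtracted (diamonds). In liver Sdf2l1, Hspa5 and Dnajb9 stay above 0.9 on all 4. With mitochondrial genes left out Pdia4 falls to 0.71 and Creld2 to 0.62, and Hsp90b1, Herpud1 and Xbp1 move further.

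Over all 18 libraries, after subtraction of each tissue's mean, the 10 genes most like Manf among 9000 genes with a mean of at least 0.5 FPKM in every tissue were Rps26, Tmbim4, Dstn, Spcs2, Itm2b, Rpl10, Sdf2l1, Guk1, Ubald2 and Fau. Their Pearson's r with Manf ran from 0.952 for Rps26 to 0.934 for Fau, and is given as a description. The points share the same libraries and depth. Spcs2 is a subunit of the signal peptidase of the ER, whereas Rps26, Rpl10 and Fau encode proteins of the ribosome. Of the 9 other genes Sdf2l1 ranked 7 (r = 0.94) and Hspa5 13 (0.93), followed by Dnajb9 at 129, Pdia4 at 183, Creld2 at 306, Hsp90b1 at 648 and Herpud1 at 1017. Xbp1 ranked 3479 and Ddit3, with r = -0.69, 8603. With diet means subtracted as well, Sdf2l1 ranked 19, Pdia4 35, Hspa5 39, Dnajb9 243, Herpud1 289, Creld2 402 and Hsp90b1 1053. Without HS3 r was 0.93 for Sdf2l1 and 0.92 for Hspa5.

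The sensors and the wider ER machinery were counted from lists. In liver, where 6473 of all 10317 genes were higher in HSD, 19 of the 22 tested other ER chaperones and folding enzymes were higher. Their median log2 fold change was 0.66 beside 0.13 for all genes, and none was called. The named genes of that list were Dnajc3 (p58IPK, an Hspa5 co-chaperone, 1.06), Sdf2 (the close relative of Sdf2l1, 1.01) and Uggt1 (the glycoprotein folding sensor, 0.48), each with a limma adjusted p of 0.764. In eWAT the median was 0.19 with HS3 and -0.01 without it, and in muscle it was -0.03.

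ER-associated degradation followed with a liver median of 0.40 (19 of 19 higher, none called), with Derl3, a channel component, (1.08), Erlec1 (0.84) and Sel1l (0.64). Derl3 was at 25.7 FPKM in HS3 eWAT and at 0.60 to 1.38 in the other eWAT libraries. ER translocation and signal peptide cleavage had a liver median of 0.42 (20 of 22 higher, none called), with Sec63 at 0.62, Sec11a at 0.64 and Srp72 at 0.41. KDEL receptors and ER export had a liver median of 0.65 (14 of 15 higher, none called), with Sar1b, which coats vesicles leaving the ER, at 1.04, Mcfd2 at 0.77 and Mia3 at 0.69. The hepatocyte markers, which are secretory cargo in good part, had a liver median of 0.96 (14 of 15 higher, none called).

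The lists outside the ER lumen were counted in the same way. ATF4 and CHOP targets had medians of 0.13 in liver, 0.16 in eWAT (-0.00094 without HS3) and 0.14 in muscle, with none called. The medians of all genes were 0.13, 0.08 and -0.06. In muscle 13 of 19 targets were higher in HSD. At an unadjusted limma p under 0.05, 5 targets were higher and 0 lower there, beside 1761 of 10834 genes in all, 465 of them higher. The named Cth, Atf3 and Nupr1 had liver fold changes of 1.87, 1.04 and -0.53. Cytosolic and mitochondrial heat shock proteins had medians of 0.28 in liver, 0.02 in eWAT (-0.056 without HS3) and -0.22 in muscle. In muscle 2 of 15 were higher, beside 4248 of all 10834 genes, and none was called, with Dnaja1, Hspa4 and Hsph1 at -0.27, -0.13 and -0.22. Among the sensors and their processing factors the liver median was 0.30 (7 of 9 higher, none called). Atf6 was at 1.21, 2.58 and 1.72 FPKM in CON liver and at 4.13, 6.70 and 2.51 in HSD liver, with overlapping groups (log2 fold change 1.03, SE 0.37, limma adjusted p = 0.764, and 1.57 with adjusted p = 0.0574 on the study's 4 libraries). Atf6b and Rtcb, the ligase that joins spliced Xbp1, had liver fold changes of 0.40 and 0.70. Ern1 was 0.25 lower and Eif2ak3 0.30 higher in HSD liver (limma adjusted p of 0.777 and 0.776).

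**Figure D5:**
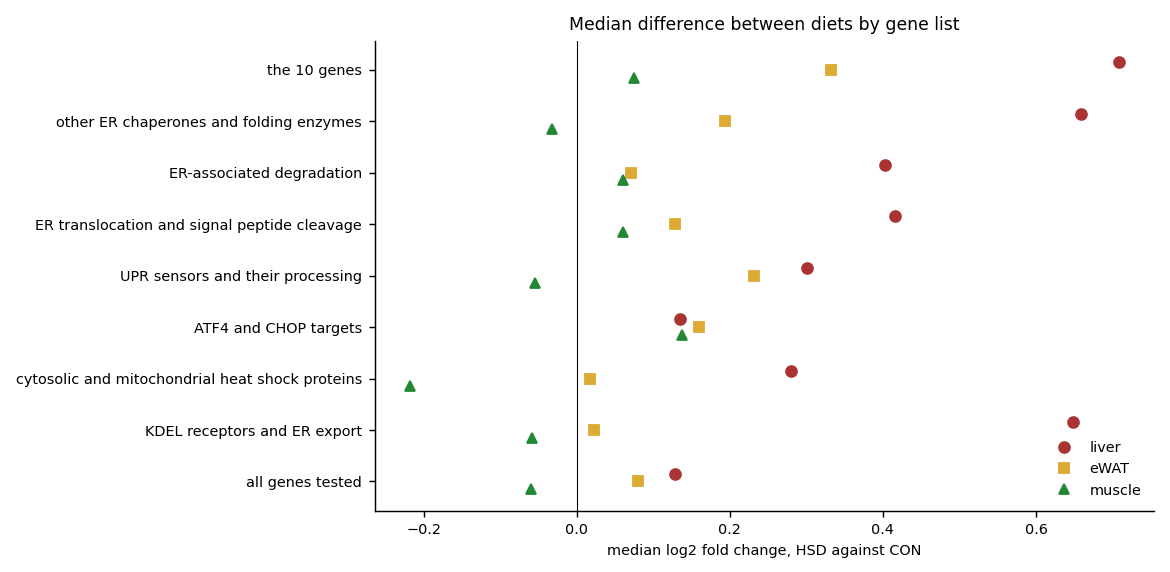
Median log2 fold change of HSD against CON (horizontal axis) for the 10 genes, 7 other gene lists and all genes tested, with circles for liver, squares for eWAT and triangles for muscle. The lists of lumenal and export proteins lie between 0.40 and 0.71 in liver against 0.13 for all genes, and lie closer to the median of all genes in muscle.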

How the data were processed

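RNA from liver, eWAT (labelled WAT) and quadriceps muscle of CON and HSD mice was sequenced, with 3 libraries per tissue and diet and 18 in all. Per the study's methods, total RNA was extracted with Trizol, a stranded total RNA kit made the libraries, reads were trimmed with cutadapt and aligned to mm10 with HISAT2, and the authors computed FPKM with cuffdiff on Ensembl genes. The release was not given in the sources used here. The submitters' processing notes also name HTSeq 0.9.1 and mm9. The deposited table holds FPKM for 21899 genes, and 0 columns were left unmapped. FPKM divide by each library's total, so a large mitochondrial share lowers every other gene.

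The 10 members and the gene lists were chosen with earlier results of these data known. The named genes of the lists were those called, or otherwise the 3 with the smallest unadjusted p in liver. Cdnf, Atf4, Atf6, Ern1 and Eif2ak3 were named whatever their values. Nearest genes to Manf were the 10 with the highest tissue-centred Pearson's r. The study's methods describe a count test, but the table holds FPKM, so limma 3.58.1 (R 4.3.3) was fitted per tissue to log2(FPKM + 0.5) for genes with a mean of at least 0.5 FPKM, with a trended prior. Such fold changes understate those of low genes. P-values measure only the spread between these mice. Tissue contrasts and interactions came from 1 fit of all 18 libraries, which treated libraries of the same mouse as independent. An alternative took the mouse as a random block, with an estimated correlation of 0.022 within mice. Correlations were tested by exact permutation in Python 3.11.15 (scipy 1.17.1, numpy 2.4.6, pandas 2.3.3), and figures used matplotlib 3.10.9. For 3 libraries against 3 a single-gene permutation test cannot go below 0.1, so none was used.

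With gene lengths from the GENCODE annotation, FPKM gave whole fragments (within 0.05) in every library for 18359 of 18789 genes with a length, and voom was run on these. Same-numbered CON and HSD libraries came from different mice, so the main fits did not pair them. The replicate number was a block only as an alternative. Deviations of same-numbered libraries from their diet means correlated at 0.383, 0.177 and 0.184 in muscle. In liver these correlations were -0.473, 0.395 and -0.213, and in eWAT -0.197, 0.0608 and 0.414. A differently numbered muscle pair (CON replicate 3 and HSD replicate 2) reached 0.180. Alternatives changed the pseudocount, filter, scaling, weights, threshold, block, covariate and libraries. The fits and searches were tested on simulated data.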

Additional observations from a re-analysis of the deposited data

How the results depend on the processing

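The calls among the 10 genes kept their count or stayed within 1.5 times it under most alternatives. Array weights, whose liver estimation did not converge and gave nearly all weight to HS2 and CON72, raised the liver calls from 0 to 3. In all 926 of 10317 genes were called with them. On the study's 15 libraries the diet effect differed between liver and muscle for 2 of the 10 (1286 of 13149 genes in all) in place of 0. Median-ratio scaling raised the genes that differed between CON liver and CON eWAT from 2 to 7, with 5215 of 12641 genes called in all. The genes correlated with Manf fell in liver from 6 to 0 with median-ratio scaling and 0 with mitochondrial genes left out. With diet means subtracted they were 2 in liver, by p-values that are not exact. In eWAT they fell from 5 to 2 with either scaling. With any single library left out they were 0 in liver and 0 in eWAT, where 5 libraries allow no exact p under 0.0167. The replicate block changed no call of the 10 between diets in any tissue (0 called in each). Between CON eWAT and CON muscle it added Hspa5 to the 6 calls.

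Several fold changes and correlations changed sign, and the cause was not tested. In liver Ddit3 became -0.17 with mitochondrial genes left out, -0.094 with array weights and -0.13 on the study's libraries. With the mitochondrial share as a covariate Manf became -0.60, Hspa5 -0.30, Sdf2l1 -0.43 and Dnajb9 -0.25. In eWAT array weights gave -0.092 for Manf, -0.15 for Hspa5, -0.11 for Hsp90b1, -0.17 for Sdf2l1 and 0.071 for Ddit3. In muscle median-ratio scaling gave 0.087 for Hspa5. Between CON liver and CON eWAT that scaling gave Hspa5 1.12, Hsp90b1 1.04, Xbp1 0.34, Dnajb9 0.77 and Ddit3 1.02, and leaving out mitochondrial genes gave Hspa5 0.25, Hsp90b1 0.18 and Ddit3 0.21. Pdia4 was -0.10 there on the study's libraries. Between CON eWAT and CON muscle Dnajb9 became -0.87 and Ddit3 -0.060 with median-ratio scaling, and Dnajb9 -0.079 with mitochondrial genes left out. The r of Xbp1 with Manf turned to -0.25 (median-ratio scaling) and -0.013 (mitochondrial genes left out) in eWAT and to -0.70 (mitochondrial genes left out) in liver, and that of Dnajb9 in muscle to -0.20 (diet means subtracted).

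With single libraries left out the fold change of Manf ran from -0.043 to 1.32 in liver, -0.21 to 0.65 in eWAT and -0.031 to 0.44 in muscle. In eWAT Hspa5 ran from -0.22 to 0.56, Hsp90b1 from -0.20 to 0.46, Sdf2l1 from -0.43 to 1.17, Pdia4 from -0.051 to 0.55 and Ddit3 from -0.15 to 0.14. In muscle Hspa5 ran from -0.12 to 0.10, Hsp90b1 from -0.21 to 0.0080, Creld2 from -0.025 to 0.31 and Ddit3 from -0.047 to 0.10. Between CON liver and CON eWAT Hspa5 ran from -0.78 to 0.0063 and Pdia4 from -0.18 to 0.38. The r with Manf ran in eWAT from -0.51 to 0.99 for Xbp1, -0.16 to 0.94 for Creld2, -0.45 to 0.93 for Dnajb9 and -0.17 to 0.88 for Herpud1. In muscle it ran from -0.35 to 0.85 for Hspa5, -0.53 to 0.21 for Hsp90b1, -0.47 to 0.75 for Sdf2l1, -0.94 to 0.42 for Pdia4, -0.46 to 0.80 for Dnajb9 and -0.019 to 0.47 for Ddit3. Low fragment counts limit the precision of Manf, Sdf2l1 and Creld2 in muscle.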

Other observations

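The summed level of macrophage markers was lower in HSD than in CON libraries of all 3 tissues. It was 68.9 to 79.2 in CON and 29.5 to 47.2 in HSD liver, 611 to 907 and 271 to 589 in eWAT, and 59.7 to 94.4 and 44.4 to 48.3 FPKM in muscle, without overlap in any tissue. Among single genes, every HSD library lay below every CON library for 3.47% in liver, 12.4% in eWAT and 15.6% in muscle. Of the markers tested, 0 of 12 were called in liver, 0 of 13 in eWAT and 1 of 10 in muscle, and 2, 1 and 2 of them had higher fitted levels in HSD. For all genes the shares called were 0%, 0% and 0.323%. Higher fitted levels in HSD were seen for 6473 of 10317, 8121 of 13740 and 4248 of 10834 genes. Plasma cell markers, another secretory cell type, summed to 19.1 to 34.7 FPKM in CON eWAT and 28.2 to 45.0 in HSD eWAT, highest in HS3. The groups overlapped. Of the 7 tested none was called and only 2 had higher fitted levels in HSD, with a median log2 fold change of -0.06.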
